A study of Homo sapiens with 6 samples.

Results

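The BCL2 family decides whether the outer mitochondrial membrane of a stressed cell is opened, and 10 of its genes were examined in MDA-MB-231 cells with a hairpin against brachyury. They were chosen by symbol, as the pro-survival genes BCL2L1, MCL1, BCL2A1 and BCL2, the effectors BAX and BAK1, and the BH3-only genes BBC3, PMAIP1, BCL2L11 and BID. All 10 were found among the 54259 gene symbols of the count table, and 9 of them passed the filter on low counts, which left 15277 genes for the test. The libraries were 3 of MDA-MB-231 shBry cells and 3 of MDA-MB-231 shNC cells, named by their labels for a hairpin against brachyury and a control hairpin. The line MDA-MB-231 was established from a human breast cancer, and both groups carry a hairpin. The sources used here give neither the number of clones behind each group nor separate cultures behind the libraries, so p-values measure the spread between these libraries, which may be technical. The comparison was made by the study to look for genes and pathways downstream of brachyury, a T-box transcription factor.

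Between 19319411 and 22985371 counts were listed per library, so that 3 counts were worth 0.131 to 0.155 CPM (read counts scaled to the library total, here the total as listed). The CPM of single libraries and group means use totals scaled by the TMM method of edgeR. The gene of brachyury was at 0 counts in all 6 libraries, the shNC controls included, so the knockdown could not be checked on it. The paper describes brachyury as constitutively overexpressed in this line. The series' own title and design text name lung cancer and pericardial RNA instead of this line. The genes listed as markers of the line, VIM, CD44, AXL, CAV1, MSN and EGFR, were all detected. Of these markers CAV1 was called lower in shBry, at 189 CPM in shNC and 87.6 CPM in shBry (log2 -1.11; edgeR adjusted p = 1.39e-07). The epithelial keratin gene KRT8 was called lower in shBry, at 891 CPM in shNC and 239 CPM in shBry. EPCAM, an epithelial gene at low level, was called higher, at 1.55 CPM in shNC and 4.28 CPM in shBry. The keratin gene KRT18 was not called (508 CPM in shNC and 372 CPM in shBry), and the epithelial gene CDH1 had at most 2 counts per library. The hormone receptor genes ESR1 and PGR had at most 1 count per library. The leukocyte markers PTPRC, TYROBP, LYZ and CD53 summed to at most 0.229 CPM in a library, with PTPRC and TYROBP at 0.

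In a healthy cell the pro-survival proteins hold the effectors BAX and BAK1 in check. BH3-only proteins are made or activated under stress, bind the pro-survival proteins, and some of them also activate the effectors directly. Once active, the effectors form pores in the outer mitochondrial membrane, cytochrome c is released and caspases are switched on. Each BH3-only protein has preferred partners. NOXA, the product of PMAIP1, binds chiefly MCL1 and the product of BCL2A1, whereas PUMA, the product of BBC3, binds all pro-survival members.

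The regions just before the start of PMAIP1 and BBC3 are shown because these were the BH3-only genes called higher in shBry cells. The sequences are from RefSeq on GRCh38.p14, read 5′ to 3′ on the strand of the gene, and end before the first transcript start of GENCODE 29. Capitals mark matches to 4 short motifs that were searched on both strands and chosen after the windows had been seen.
PMAIP1, chr18:59899746-59899947 (+): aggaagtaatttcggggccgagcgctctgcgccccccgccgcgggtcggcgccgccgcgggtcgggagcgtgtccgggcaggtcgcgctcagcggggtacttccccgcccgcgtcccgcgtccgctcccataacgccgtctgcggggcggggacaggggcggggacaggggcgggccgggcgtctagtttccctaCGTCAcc
BBC3, chr19:47232767-47232917 (-): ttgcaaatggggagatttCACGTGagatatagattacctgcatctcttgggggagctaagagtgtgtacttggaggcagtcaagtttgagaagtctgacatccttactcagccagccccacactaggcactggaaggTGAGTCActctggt
The capitals in PMAIP1 are the ATF/CREB half-site TGACG read on the other strand, 55 to 51 bases before the RefSeq start. In BBC3 the first match is the E-box CACGTG, 232 to 227 bases before the start, and the second is the AP-1 motif TGANTCA, 113 to 107 bases before it. Of 35116 RefSeq promoter windows of 250 bases before a start, 21.2% held TGACG, 6.57% held TGANTCA, 6.34% held CACGTG and 3.14% held the CHOP-ATF4 core TGATGNAA. A TGACG overlapping a CACGTG was counted for both. Among the other members TGACG also stood in the windows of BAX, BCL2 and BCL2L1, none of which was called in either direction. BCL2A1 held the only TGATGNAA, 63 to 56 bases before its RefSeq start. The BAX window held 4 E-boxes, and overlapping windows of BID shared 1. Unlike the printed sequences, these windows were not cut at the GENCODE 29 start. The windows of BCL2 and BCL2A1, and those of BID with the E-box, lie inside the gene by GENCODE 29. The BAX window reaches into its gene. MCL1 was not matched in the promoter table. These matches describe letters only.

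In all, 3 members were called higher in shBry cells, PMAIP1 by 4.33-fold, BBC3 by 1.79-fold and MCL1 by 1.53-fold, and none was called lower. A gene was called when its adjusted p in edgeR's quasi-likelihood test was below 0.05 and its fold change above 1.5. The 3 of 9 tested members called higher stand beside 17.1% of all tested genes, and the 0 called lower beside 15.2%. Without the fold limit 5 members had an adjusted p below 0.05, 4 of them higher and 1, BCL2, lower, against 53.3% of all tested genes. The libraries of both groups did not overlap for 6 members, with shBry above for MCL1, BAK1, BBC3 and PMAIP1 and below for BCL2 and BAX, against 59.5% of all tested genes. The median log2 fold change was 0.21 over the tested members and 0.03 over all tested genes. The plot of member values shows every library. In bulk RNA, fewer cells with a high level and less RNA per cell cannot be told apart.

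**Figure D1:**
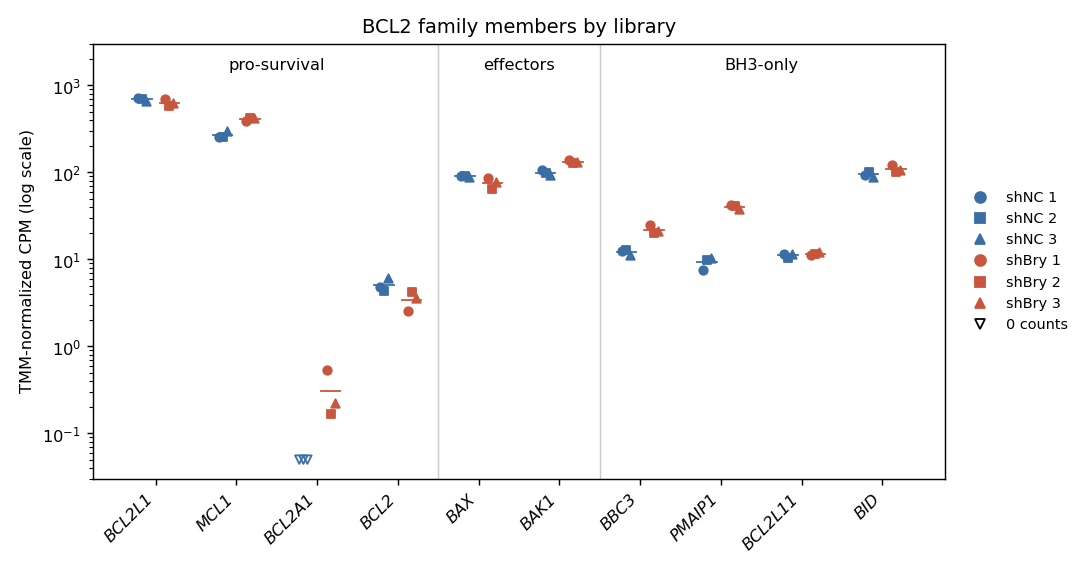
CPM of each BCL2 family gene in every library on a log axis, with shNC and shBry libraries as separate points. The 3 shBry libraries of PMAIP1 lie between 37.8 and 41.8 CPM, all above the shNC libraries, while those of BCL2L11 mix with the shNC libraries. BCL2A1 at 0 counts is drawn at the lower edge of the axis.

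Among the BH3-only genes, PMAIP1 had the largest change of any tested member. It is on chromosome 18 (59899948 to 59904306, plus strand, GENCODE 29 on GRCh38) and is induced by the integrated stress response. Its level was 7.61, 9.74 and 10.5 CPM in shNC and 41.8, 40.9 and 37.8 CPM in shBry libraries. The lowest shBry library thus stood far above the highest shNC library. The log2 fold change was 2.11 ± 0.13 (SE, n = 3 and 3), with an edgeR adjusted p of 1.41e-08. Only 243 of the 15277 tested genes (1.59%) rose by more.

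BBC3 encodes PUMA, a potent inducer of apoptosis, and lies on chromosome 19 (47220822 to 47232766, minus strand). Its 3 shNC libraries were at 12.6, 13.0 and 11.4 CPM and its shBry libraries at 24.6, 20.1 and 21.5 CPM. The groups did not overlap. The log2 fold change was 0.84 ± 0.13 (SE, n = 3 and 3; edgeR adjusted p = 7.7e-05). About 2.5% of its exon bases lie in microRNA genes, which could share its reads.

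BCL2L11 encodes BIM, a BH3-only protein that binds all pro-survival members and can activate the effectors. Its libraries lay at 11.5, 10.4 and 11.4 CPM in shNC and 11.3, 11.4 and 12.2 CPM in shBry, so the groups overlapped. The log2 difference was 0.07, with a 95% interval from -0.21 to 0.35 (edgeR adjusted p = 0.691), which leaves out a change of 1.5-fold in either direction. BID, which caspase-8 cuts to link the death receptors to mitochondria, was at 94.6, 102 and 89.3 CPM in shNC and 122, 102 and 106 CPM in shBry. The lowest shBry library was below the highest shNC library. Its log2 difference was 0.21 (95% interval 0.01 to 0.40), with an edgeR adjusted p of 0.0722. BIM is translated from several splice forms, which gene counts do not tell apart. Exons of MIR4435-2HG on the opposite strand cover 10.9% of the BCL2L11 exon bases. That gene had 1554, 1573 and 1399 counts in shNC and 1156, 1257 and 1476 in shBry, against 210 to 276 for BCL2L11 in any library, and whether reads were counted by strand is not known here.

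**Figure D2:**
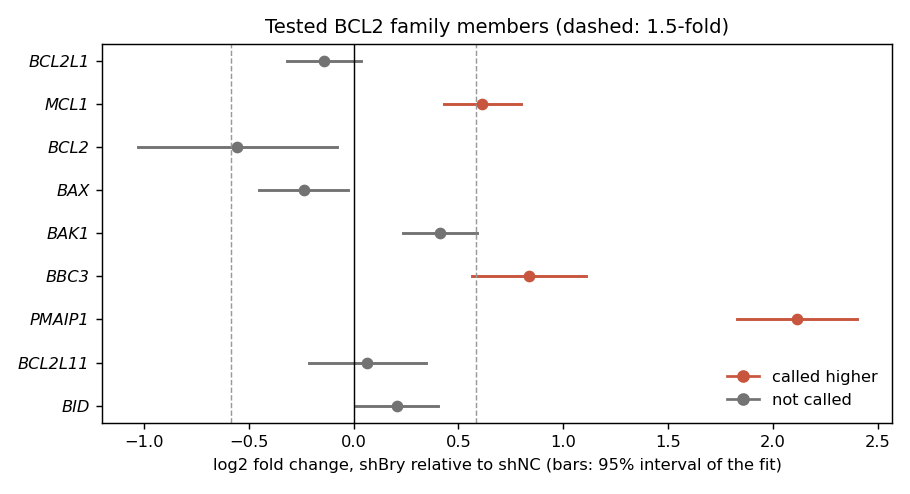
Log2 fold change of shBry over shNC for the 9 tested members, with bars for the 95% interval and lines at the 1.5-fold limit in each direction. PMAIP1 at 2.11, BBC3 at 0.84 and MCL1 at 0.615 lie past the limit, and MCL1 lies just past it.

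Of the pro-survival genes, MCL1 rose, BCL2L1 and BCL2 were not called, and BCL2A1 was too low to be tested. MCL1 (chromosome 1, 150574551 to 150579738, minus strand) makes a short-lived protein that NOXA binds and helps to degrade. It was at 253, 257 and 300.2 CPM in shNC and 389.9, 427 and 424 CPM in shBry libraries, with no overlap. The log2 fold change was 0.615 ± 0.086 (SE, n = 3 and 3; edgeR adjusted p = 3.64e-05), close to the limit of 0.585 that 1.5-fold gives. Without shNC 1, shNC 2 or shBry 2 it was 0.566, 0.562 and 0.579, below the limit, with edgeR adjusted p of 0.00028, 0.000546 and 1.3e-05.

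BCL2L1 encodes BCL-XL and had the highest level of the family. Its libraries were at 714, 707 and 670.1 CPM in shNC and 692, 577 and 627 CPM in shBry. The shBry 1 library lay inside the range of the shNC group. The log2 difference was -0.14 (95% interval -0.32 to 0.04; edgeR adjusted p = 0.168). A gene on the opposite strand, ABALON, covers 43.0% of the BCL2L1 exon bases and was listed with 1 to 2 counts per library. Whether reads were counted by strand is not known here, so how reads of the overlap were counted is not known either. The gene count does not separate the long pro-survival form of BCL2L1 from its short pro-apoptotic splice form.

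BCL2, the founder of the family, is on chromosome 18 (63123346 to 63320128, minus strand). It was at 4.86, 4.35 and 6.16 CPM in shNC and 2.53, 4.21 and 3.64 CPM in shBry, low in all libraries. The groups did not overlap, but the highest shBry library came close to the lowest shNC library. The log2 difference was -0.55 ± 0.22 (SE, n = 3 and 3), with an edgeR adjusted p of 0.0474, short of the fold limit. Without shNC 2 it was -0.67 and without shBry 2 it was -0.73, both past the limit and the threshold, at edgeR adjusted p of 0.043 and 0.0122. Without any other single library the edgeR adjusted p lay between 0.0761 and 0.173, so the threshold was missed, and without shNC 3 or shBry 1 the log2 difference was -0.43 and -0.38. It was also missed with DESeq2 (adjusted p = 0.052) and with edgeR without TMM (adjusted p = 0.063), and limma-voom gave an adjusted p of 0.05. The threshold was met in edgeR with DESeq2 size factors (adjusted p = 0.0359) and without the low count filter (0.0257). It was met as well in edgeR with at least 10 counts in every library (0.0461) and with the replicate block (0.044).

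BCL2A1, a pro-survival gene that NF-kB induces, had 0 counts in each shNC library and 10, 4 and 5 counts in shBry 1 to 3. Over the totals as listed, these 19 counts were 0.291 CPM, or 6.08 times the 0.0479 CPM that 3 counts over the shNC group would give. It did not pass the filter. ST20 transcripts share 4.42% of the 50-base stretches of this gene. ST20 was listed with 105 to 169 counts per library, against 0 to 10 for BCL2A1, and how far shared reads move the value was not tested. In an edgeR fit without the filter the adjusted p of BCL2A1 was 0.00182. The floor of 3 counts allows for counting error in shNC only. The value of 6.08 covers neither the counting error of the 19 counts in shBry nor the spread between libraries. BCL2A1 is best known from blood cells. The leukocyte markers were near 0 in both groups, as given above, but BCL2A1 was itself at most 0.538 CPM in a library. Both are too low to be compared, and the source of the BCL2A1 reads was not tested.

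Of the effectors, which form the membrane pore, BAK1 was higher and BAX lower in shBry, and neither passed both limits. BAK1 was at 107, 98.4 and 93.3 CPM in shNC and 139, 127 and 131 CPM in shBry, and the groups did not overlap. It was 1.33-fold higher, at a log2 difference of 0.41 ± 0.08 (SE, n = 3 and 3; edgeR adjusted p = 0.000792). A pseudogene, BAK1P1, shares 12.3% of the 50-base stretches of BAK1 transcripts. It was listed with 42 to 88 counts per library, against 1863 to 3018 for BAK1, and how far shared reads move the value was not tested. BAX was at 91.1, 90.5 and 88.7 CPM in shNC and 86.1, 65.2 and 77.9 CPM in shBry. Every shBry library was below the shNC libraries. The log2 difference was -0.24 (95% interval -0.45 to -0.03; edgeR adjusted p = 0.0559). The shBry 2 library was the lowest of its group for BAX, BAK1, BCL2L1, BBC3 and BID. Without it the log2 difference of BAX was -0.15 (edgeR adjusted p = 0.169) and that of BID was 0.24 (edgeR adjusted p = 0.0356), and neither gene passed the fold limit. For BAX, leaving out shNC 1, shNC 2 or shBry 3 gave edgeR adjusted p of 0.0988, 0.0844 and 0.104. Leaving out shNC 3 or shBry 1 gave 0.0415 and 0.0103. With all libraries the adjusted p of BAX was below 0.05 in every alternative fit, though the fold limit was missed in each. It was 0.0371 with DESeq2, 0.0452 with limma-voom and 0.0213 with edgeR without TMM. In edgeR it was 0.0405 with DESeq2 size factors and 0.018 without the low count filter. Requiring at least 10 counts in every library gave 0.0354 in edgeR, and the replicate block 0.0454.

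**Figure D3:**
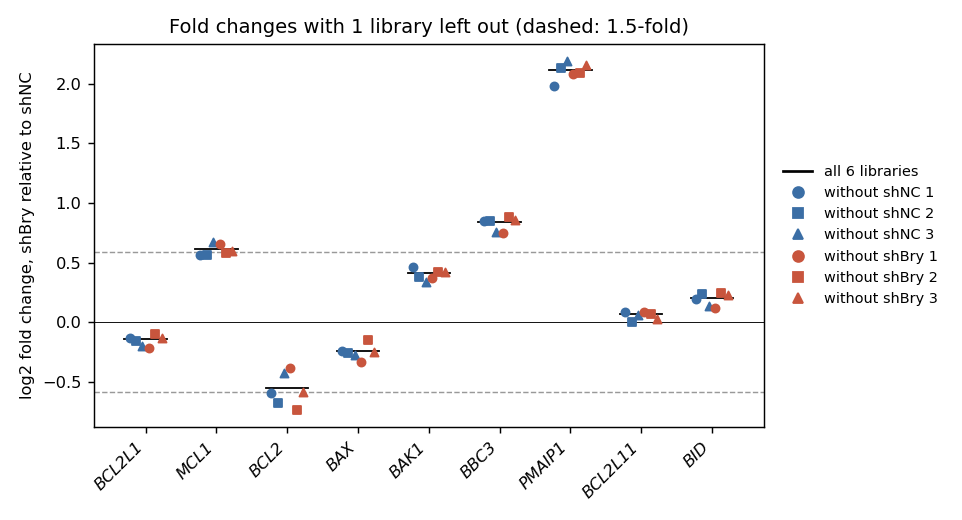
Log2 fold change of each tested member with all libraries and with each of the 6 libraries left out, with lines at the 1.5-fold limit. PMAIP1 stays between 1.98 and 2.19 and BBC3 between 0.75 and 0.88, while MCL1 (0.56 to 0.67) and BCL2 (-0.73 to -0.38) cross the limit.

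Per kilobase of exon, BCL2L1 came first in both groups, followed by MCL1, BAK1, BAX, BID, PMAIP1, BBC3, BCL2L11, BCL2 and BCL2A1. The level of BCL2L1 was 210.3 ± 7.12 CPM per kb in shNC and 191 ± 17.5 in shBry (SD, n = 3 each). MCL1 was second, at 61.8 ± 5.97 and 94.6 ± 4.72 CPM per kb. The order of the genes was the same in both groups. Neighbours whose libraries overlapped were PMAIP1 and BBC3 in shNC, BAX and BID in shBry, and BCL2 and BCL2A1 in shBry. PMAIP1 was at 4.16 ± 0.67 CPM per kb in shNC and 18.0 ± 0.94 in shBry. Exon lengths are from GENCODE 29, which may differ from the annotation used for counting. They join the exons of all annotated transcripts of a gene, 25 for BCL2L11 and 4 for MCL1. The transcripts expressed here may be shorter, and the order, shares and ratios between genes rest on these lengths.

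The makeup of the family is given as shares, which are descriptions built from the values above. BCL2L1 made up 54.8% ± 1.16 of the summed CPM per kb of the 10 members in shNC and 44.6% ± 1.66 in shBry (SD, n = 3 each). MCL1 made up 16.1% ± 1.77 in shNC and 22.3% ± 2.23 in shBry. Between the libraries of the groups neither share overlapped. The BH3-only genes together held 8.13% ± 0.39 in shNC and 12.05% ± 0.38 in shBry. The effectors held 20.8% ± 0.66 and 20.9% ± 0.43. For each unit of MCL1 there were 0.0671 ± 0.0078 units of PMAIP1 in shNC and 0.19 ± 0.018 in shBry, so the ratio was higher in each shBry library. The ratio of BAK1 to BAX was 1.29 ± 0.07 in shNC and 2.04 ± 0.21 in shBry.

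**Figure D4:**
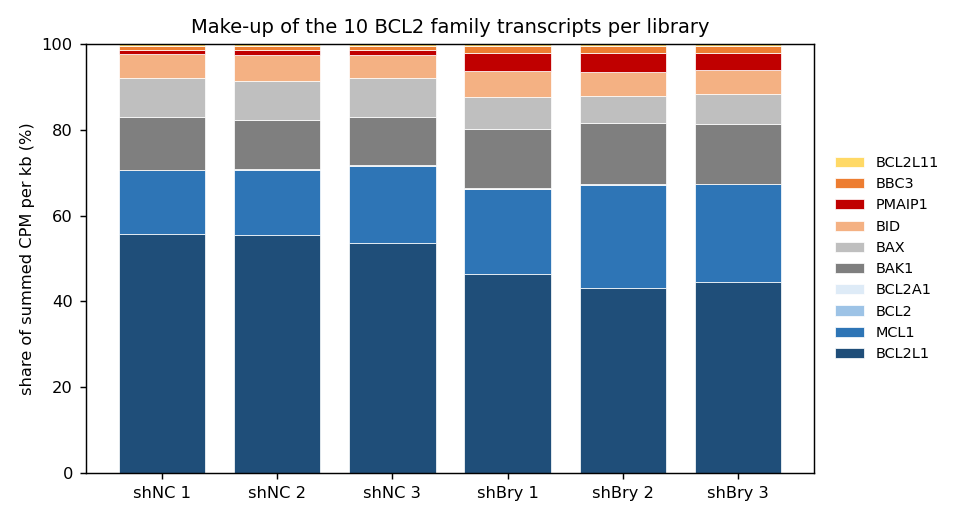
Share of each member, in percent of the summed CPM per kb of the 10 genes, stacked for every library. BCL2L1 takes 53.5% to 55.6% in the shNC libraries and 43.1% to 46.4% in the shBry libraries.

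The profile most like that of PMAIP1 over the 6 libraries was that of SLC22A15, at a Euclidean distance of 0.256 between log2 CPM profiles, each centred on its shNC mean. LINC01518 (0.258) and ZNF239 (0.266) came next among the 9405 candidate genes whose mean reached 10 CPM.

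The rest of the apoptosis pathway was read from 6 lists of 83 genes, of which 76 were tested. Of these 23 were called higher, 20 lower and 33 were not called, with a median log2 fold change of 0.25. Over all tested genes, the background for each list, 17.1% were called higher and 15.2% lower, with a median of 0.03. Among the other BCL2 family genes 2 of 9 tested rose and 3 fell. BIK, a BH3-only gene, rose from 6.75 ± 1.21 to 23.3 ± 2.87 CPM (log2 1.78; edgeR adjusted p = 4.17e-07). BMF, another BH3-only gene, rose by 0.61 on the log2 scale (edgeR adjusted p = 0.00439). BNIP3, a mitophagy receptor induced by hypoxia, fell from 379 ± 19.8 to 89.8 ± 1.3 CPM, a log2 change of -2.08 (edgeR adjusted p = 8.7e-11). BCL2L12 (log2 -1.18) and the effector-like gene BOK (-0.64) fell as well. Exons of other genes overlap 33.1% of BCL2L12.

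The apoptosome and caspase list had 3 of 13 tested genes that rose and 6 that fell. CYCS, which encodes cytochrome c, rose from 84.6 ± 10.8 to 153.7 ± 8.97 CPM (log2 0.86). DFFA, the inhibitor of the caspase-activated nuclease, rose by 0.67 on the log2 scale. CASP2, an initiator caspase, fell from 33.2 ± 1.33 to 14.2 ± 1.06 CPM (log2 -1.23), and ENDOG, a mitochondrial nuclease with 39.2% of its exon bases in other genes, changed by -1.35 on the log2 scale. In the death receptor branch, 3 of the 10 that were tested rose and 2 fell. TNFRSF10B, the TRAIL receptor DR5, was at 149 ± 3.58 CPM in shNC and 336 ± 12.3 in shBry (log2 1.18; edgeR adjusted p = 1.68e-08). TNFRSF10A, the TRAIL receptor DR4, rose by 1.52 on the log2 scale, and CFLAR, which blocks caspase-8 activation, by 0.75. TRADD, an adaptor of the TNF receptor, fell by 0.60 on the log2 scale. CASP8, which acts upstream of BID, was not called (log2 0.28; edgeR adjusted p = 0.0171).

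Of the inhibitors of apoptosis, 2 of 5 tested genes rose and 1 fell. BIRC3, an NF-kB target, rose from 7.29 ± 1.45 to 35.4 ± 7.9 CPM (log2 2.28; edgeR adjusted p = 1.15e-07). XIAP, a direct caspase inhibitor, was at 13.6, 13.0 and 18.5 CPM in shNC and 23.7, 36.9 and 23.6 CPM in shBry, and shBry 2 stood apart from the others of its group. BIRC5, which encodes survivin and acts in mitosis, fell from 161 ± 7.78 to 51.5 ± 4.16 CPM (log2 -1.64). BIRC2 was not called (log2 0.50; edgeR adjusted p = 0.0236).

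Among the transcriptional regulators of the family, 12 of 21 that were tested rose and 4 fell, with a median log2 fold change of 0.70. ATF3, a stress-induced factor, rose from 11.6 ± 0.41 to 95.7 ± 7.78 CPM (log2 3.05; edgeR adjusted p = 2.41e-11). DDIT3, the stress factor CHOP, was at 7.29, 9.36 and 10.4 CPM in shNC and 39.4, 26.7 and 37.2 CPM in shBry, with no overlap. Its log2 change was 1.93, and exons of other genes overlap 39.6% of it. ATF4, its upstream activator in the integrated stress response, rose by 0.62 on the log2 scale, and TRIB3, a target of both, by 2.22. The NF-kB subunit genes RELB and NFKB2 rose by 2.05 and 1.62.

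In the list of protein turnover and outer membrane partners, 1 of 18 tested genes rose and 4 fell. The channel genes of the outer membrane differed in direction, with VDAC2, a partner of BAK1, up by 0.61 on the log2 scale and VDAC1 and VDAC3 at -0.80 and -0.74. The co-chaperone gene BAG3 fell from 213 ± 2.64 to 125 ± 6.8 CPM (log2 -0.77).

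**Figure D5:**
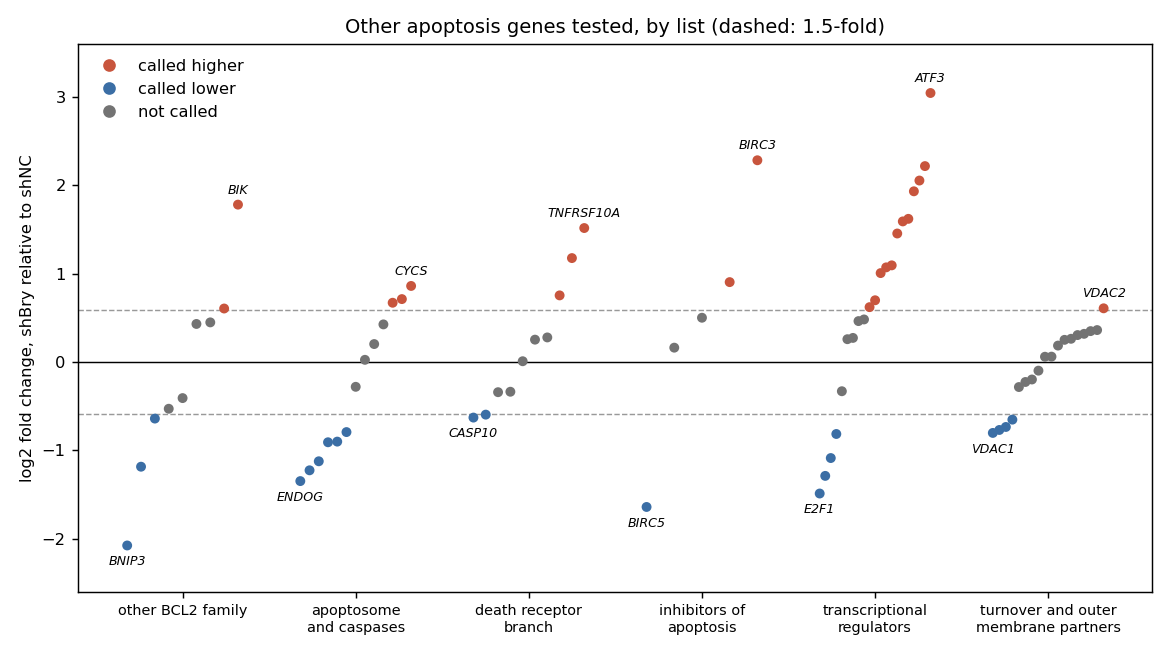
Log2 fold change of each tested gene of the 6 apoptosis lists, 1 point a gene, with called genes marked and lines at the 1.5-fold limit. Transcriptional regulators have 12 called genes above and 4 below the lines, and the turnover and membrane list has 1 above and 4 below.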

How the data were processed

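RNA of 3 MDA-MB-231 shBry and 3 MDA-MB-231 shNC libraries was sequenced, and samples were grouped by the hairpin named in their labels. The authors deposited whole-number read counts per gene symbol, without normalization. The submitters' processing notes name HISAT2 2.0.4, HTSeq and the build GRCh38. The annotation, counting mode and use of strand are not given in the sources used here. ChIP-seq data were not analysed here.

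Low genes were removed from these counts by filterByExpr (minimum count 10), libraries were scaled by TMM, and groups were compared in edgeR 4.0.16 (R 4.3.3) by its quasi-likelihood F test, with Benjamini-Hochberg adjustment over all tested genes. CPM of libraries and group means are TMM-normalized, while the worth of 3 counts and the pooled level of BCL2A1 use totals as listed. Gene positions, exon lengths and overlaps came from GENCODE 29, and promoter windows from RefSeq, which matched 9 of 10 members. The test was checked on simulated counts with the dispersions of these data. The simulation changed far fewer genes than were called here, each by more than the fold limit. It therefore does not cover calls near that limit or a shift of so many genes. Alternatives were other scalings, DESeq2 1.42.0, limma-voom (limma 3.58.1), other filters, thresholds and fold limits, the replicate number as a block, and each library left out.

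The members and gene lists were chosen with earlier results of these data known. The text names all members, called genes of the other BCL2 family list, in each other apoptosis list the 4 genes of lowest adjusted p, CFLAR, XIAP, CASP8, DDIT3 and ATF4, and the 3 profiles nearest to the called member with the largest rise (no called member fell). A result of 1 gene that the rule names is not reported here. Cell type markers were a list of their own. ABALON, BAK1P1, ST20 and MIR4435-2HG, which overlap or resemble members, were chosen after their values were seen.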

Additional observations from a re-analysis of the deposited data

How the results depend on the processing

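Of 16 alternatives, 13 had a fit of their own. In these the 9 tested members kept their direction in all 117 refitted fold changes. In 112 of them the call, which takes both limits together, was unchanged. Among these 112 the adjusted p alone crossed 0.05 in some fits of BAX, BCL2, BCL2L1 and BID. With a fold limit of 2 only 1 member (PMAIP1) was called higher, 2297 genes were called in all instead of 4945, and of the other apoptosis genes 14 were called higher and 9 lower instead of 23 and 20. Without a fold limit 8139 genes were called, among them 4 members higher and 1 lower and 36 other apoptosis genes higher and 27 lower. Without the low count filter BCL2A1 was called too, which made 4 members higher. Leaving out 1 library gave 4587 to 5025 genes in all, 2 to 3 members higher and 0 to 1 lower. MCL1 and BCL2 are the members that crossed the fold limit, by the values given with them. Replicate numbers are shared by both groups. Deviations from the group means correlated between same-numbered libraries with r = 0.246, -0.129 and -0.0539. Between libraries of different number r lay between -0.296 and 0.307, so the numbers were not taken as pairs. The replicate block gave 4914 genes and 3 members higher and 0 lower. Counts limit BCL2 and BCL2A1 most. Protein levels, splice forms and cell death were not measured in these libraries.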
